A study of Mus musculus with 4 samples.

Results

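Histone transcripts were followed in pre-B cells, the bone marrow precursors that have rearranged a heavy chain gene and divide before they rearrange a light chain gene. The members were the gene symbols that begin with Hist1h to Hist4h, H2af, H3f3 or H1f0 and reached 1 FPKM (fragments scaled to transcript length and to library depth) in at least 1 of 4 libraries. Of 23284 symbols, 78 matched the pattern and 55 passed the level. They are 6 linker genes, 42 core replication-dependent genes (8 H2A, 14 H2B, 8 H3 and 12 H4) and 7 replacement variant genes. The H2B group includes 1 pseudogene, Hist3h2bb-ps. Just inside the level, Hist1h4a reached 1.08 FPKM, the value of 1 read in 1 library. Just outside it, Hist1h2ag reached 0.973 FPKM and Hist1h2bk 0.794 FPKM. Of the 23 symbols that did not pass, 14 were listed at 0 in every library.

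The study compared marrow that differs in STAP-2, a signal-transducing adaptor protein, and asked how STAP-2 bears on the recovery of B lineage cells under stress. All cells came from C57BL/6J mice and were labelled pre-B cells. At steady state there was 1 wild-type library and 1 STAP-2 transgenic library, and 1 month after transplantation there was 1 wild-type library and 1 library labelled STAP-2 knockout. No source used here gives the promoter of the transgene, the design of the knockout, the age and number of mice, the hosts or the sorting gate. With 1 library per group there is no replicate check, and no p-value is given. Intervals are 95% exact Clopper-Pearson intervals on estimated reads, which hold counting error alone, because reads that carry no molecular identifier are not independent molecules.

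Linker H1 histones bind the DNA between nucleosomes, and the core histones H2A, H2B, H3 and H4 form the nucleosome itself. The replication-dependent genes lie in clusters, are transcribed mainly in S phase and give mRNAs that end at a conserved stem loop in place of a poly(A) tail. Replacement variants such as H2A.Z and the H3 variant encoded by H3f3a and H3f3b come from separate genes with ordinary polyadenylated mRNAs and are made throughout the cell cycle. Libraries made by poly(A) selection, as here, capture mRNAs without a tail poorly, so levels of the replication-dependent genes are not total levels. Many of these genes are also near-copies of each other: 31 of the 55 members have another histone gene that is at least 95% identical in coding sequence, and Hist1h4m is identical to Hist1h4n. Reads of such genes cannot be assigned with certainty: Hist1h4m rested on 5, 6, 6 and 5 whole reads, while Hist1h4n was listed at 0 in every library.

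Depth was estimated at about 7350000 reads for the steady-state wild type, 7290000 for the transgenic, 7780000 for the transplanted wild type and 8710000 for the library labelled knockout. Stap2 was at 0.212, 0.536, 0 and 0.179 FPKM in that order. At such low values its level checks neither the knockout label nor the transgenic one, and both names follow the labels. All 18 pre-B markers were listed, with Cd79a between 1624 and 1952 FPKM. The steady-state wild type was well below the others on 4 of them. On some it was above the others, such as Rag1, at 638 FPKM against 286 to 453. Vpreb1 was at 7.31 FPKM there and at 34.4, 30.2 and 38.6 in the transgenic, the transplanted wild type and the labelled knockout library. Igll1, its partner in the surrogate light chain, was at 14.6 against 39.9, 36.4 and 49.7 FPKM, Dntt at 2.12 against 7.53, 12.1 and 15.1, and Vpreb2 at 0 against 3.74, 7.59 and 8.86. Markers of other cells differed between libraries. The summed neutrophil list (15 of 16 symbols listed, none at 0) was 777 and 1859 FPKM in the steady-state wild type and transgenic, and 1717 and 662 in the transplanted wild type and the labelled knockout library. The summed erythroid list (11 of 14 symbols listed) was 113, 21.6, 22.5 and 27.6 FPKM in the same order. In bulk samples, fewer cells of a type and less RNA per cell cannot be told apart.

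The stem loops of the replication-dependent genes show which members the library kit could be expected to miss. Below, the 16 bases of the stem loop are in capitals, with up to 4 bases before and 5 after, from the GENCODE transcripts of GRCm38. The genes shown are those whose values the results below turn on.
Hist1h1c: aaaaGGCTCTTTTCAGAGCCaccac
Hist1h1d: aaacGGCTCTTTTCAGAGCCaccca
Hist3h2a: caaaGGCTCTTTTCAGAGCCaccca
Hist1h2bg: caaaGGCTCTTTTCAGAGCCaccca
Hist1h2bm: caaaGGCTCTTTTCAGAGCCactaa
Hist1h3c: aaaaGGCTCTTTTAAGAGCCaccta
Hist1h4i: taaaGGCCCTTTTTAGGGCCaccac
Hist1h4h: caaaGGCCCTTTTCAGGGCCgccca
Hist2h4: taacGGCCCTTTTTAGGGCCaacca
H2afx: caaaGGCCCTTTTAAGGGCCaccac

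A stem loop with the core CTTTTNAG and 4 paired flanking bases on each side (1 unpaired base allowed) was found in 34 members. The same 16 bases, as in Hist1h1c, were present in 18 of them. No H4 gene had that form. Of the 10 H4 genes with a stem loop, 6 had the form printed for Hist1h4h, 2 that of Hist1h4i and 2 another. H2afx, counted among the variants, also carries a stem loop, and its annotated transcript runs on to a poly(A) signal. The longest annotated coding transcript ended within 100 nt of the stem loop in 13 members and ran on for more than 100 nt in 21. A poly(A) signal (AATAAA or ATTAAA in the last 50 nt) was present in 1 of those 13 and in 11 of those 21. No gene of the group that ends at the stem loop reached 20 estimated reads in any library, and their highest mean over the 4 libraries was 4.30 FPKM. Of the 20 replication-dependent genes that run past it, 5 reached 20 reads and 6 had a mean of 5 FPKM or more. The limit of 100 nt was chosen after the members' values were seen.

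The deposited values step in whole reads, which shows how few reads stand behind most members. Whole reads were resolved for 34 members, with at most 25 reads in any library. For 30 the step matched an annotated length. For 4 it matched none, so the reads of these 4 could be off by a whole factor. For 19 of the 30 the step fitted the coding length alone, and 15 of these have a longer annotated transcript. Reads beyond the stop codon, where the stem loop lies, thus appear not to have been counted there. For the 21 members not resolved, the reads given are lower bounds from the shortest model. Their intervals are therefore if anything too wide for counting error. All intervals leave out duplicate reads, reads shared between copies and variation between samples, for which they are too narrow. In all, 40 members stayed under 20 estimated reads in every library and 10 at 3 or fewer. 35 members were at 1 FPKM or more in all 4 libraries, and 7 in 1 library only.

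The linker genes were dominated by Hist1h1c (H1f2 in RefSeq, chr13:23738808-23740367 on GRCm38), a replication-dependent linker gene whose annotated transcript runs 840 nt past the stem loop to a poly(A) signal. Hist1h1c was at 350.4 FPKM in the steady-state wild type, 65.0 in the transgenic, 158 in the transplanted wild type and 76.6 in the labelled knockout library. Each wild-type library was above the library it was paired with, and the steady-state wild type was highest. Behind these values lay at least 1105, 203, 527 and 286 reads. Hist1h1c made up 92.0% and 90.6% of the summed linker FPKM in the steady-state and transplanted wild type, 70.1% in the transgenic and 76.9% in the library labelled knockout.

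H1f0, the linker variant that accumulates in cells that stop dividing, was at 13.3, 14.5, 5.82 and 9.23 FPKM in the steady-state wild type, the transgenic, the transplanted wild type and the labelled knockout library. Its share of the linker sum was 3.49%, 15.6%, 3.34% and 9.27% in that order. Hist1h1b was at 7.35, 5.04, 3.06 and 5.46 FPKM. The level of Hist1h1d was 7.44 FPKM in the steady-state wild type and 2.04, 2.61 and 2.24 in the other libraries. Hist1h1a and Hist1h1e were each lowest in the steady-state wild type, at 1.27 FPKM. Elsewhere Hist1h1a lay between 2.15 and 3.57 FPKM and Hist1h1e between 2.53 and 3.08. The steady-state wild type was thus highest for Hist1h1d and lowest for Hist1h1a and Hist1h1e, on 25, 5 and 4 reads. H1fx, a linker variant outside the symbol pattern, was at 4.15, 2.42, 1.51 and 3.37 FPKM.

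**Figure D1:**
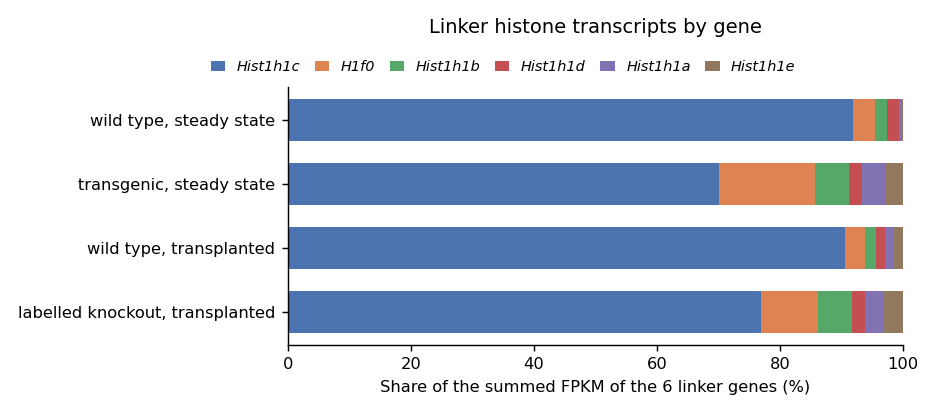
Share of the summed FPKM of the 6 linker genes (x axis, percent) taken by each gene, with 1 bar per library. Hist1h1c takes 92.0% and 90.6% in the wild-type libraries, 70.1% in the transgenic and 76.9% in the library labelled knockout.

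The promoters shown were picked after the values were seen, since Hist1h1c, Hist1h1d, Hist1h2bg and Hist3h2a were each lower in the transgenic library. Each run is the 160 bases before the RefSeq transcription start on GRCm38.p6, read on the gene's own strand. Capitals mark the motifs CCAAT, ATTTGCAT (the octamer), TATAAA and AAACACA (the H1 box), each on either strand. These motifs do not overlap one another as spelled.
Hist1h1c (chr13:23738647-23738806, plus strand): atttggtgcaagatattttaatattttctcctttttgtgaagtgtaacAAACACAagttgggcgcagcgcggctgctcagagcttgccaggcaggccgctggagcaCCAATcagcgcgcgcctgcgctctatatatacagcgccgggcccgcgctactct
Hist1h1d (chr13:23554872-23555031, plus strand): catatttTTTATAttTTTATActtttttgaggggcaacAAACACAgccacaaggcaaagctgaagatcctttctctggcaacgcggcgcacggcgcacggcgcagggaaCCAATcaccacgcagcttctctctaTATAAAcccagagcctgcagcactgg
Hist1h2bg (chr13:23571240-23571399, plus strand): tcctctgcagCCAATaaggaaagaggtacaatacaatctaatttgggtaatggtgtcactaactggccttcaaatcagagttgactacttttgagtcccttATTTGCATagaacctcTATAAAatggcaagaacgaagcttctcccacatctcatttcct
Hist3h2a (chr11:58954525-58954684, plus strand): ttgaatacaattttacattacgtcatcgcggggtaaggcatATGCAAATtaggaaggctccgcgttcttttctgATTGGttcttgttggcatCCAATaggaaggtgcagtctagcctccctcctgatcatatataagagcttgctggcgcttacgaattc

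Promoters were given for 49 members, and the motifs were searched in the 250 bases before the start. AAACACA was present in 4 of 6 linker promoters, against 6.25% of all 32851 promoters of that length. The octamer, a site of POU factors, was present in 5 of 8 H2A and 4 of 11 H2B promoters, against 1.60% of all promoters. CCAAT was present in all 8 H2A and all 11 H2B promoters and in 3 of 11 H4 promoters, against 33.8% of all. TATAAA was present in 6 of 8 H2A and 5 of 11 H4 promoters, against 12.4% of all. A match is a description of the letters and not of a bound factor. In 6 places, a pair of members face away from each other with starts within 295 bases, as in Hist1h2ae and Hist1h2bg, with 175 bases between their annotated starts. Hist1h2ae was at 1.38, 1.94, 0.780 and 1.39 FPKM where Hist1h2bg was at 41.6, 20.3, 21.2 and 8.77, so the partners of that pair did not have like levels. The same held for Hist1h2ac (1.50 to 5.01 FPKM) and Hist1h2bc (11.7 to 27.8 FPKM), whose starts lie 250 bases apart. It did not hold for Hist1h2ak (0.697 to 4.46 FPKM) and Hist1h2bn (0.665 to 2.98 FPKM), 295 bases apart, which were both low.

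The replacement variants included the most abundant histone transcripts. H3f3a, which encodes the replication-independent H3 variant, was at 1513, 1526, 1457 and 1497 FPKM in the steady-state wild type, the transgenic, the transplanted wild type and the labelled knockout library. Its sister gene H3f3b, which encodes the same protein, was at 879, 612, 761 and 733 FPKM, lowest in the transgenic. These genes made up between 99.2% and 99.4% of all H3 FPKM, a share of poly(A)-selected RNA that leaves out most tailless H3 mRNA.

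Among the H2A variants, H2afz, which encodes H2A.Z of promoter nucleosomes, was at 459, 553, 407 and 589 FPKM in the same order. H2afv, the other H2A.Z gene, was at 83.0, 89.3, 67.2 and 95.9 FPKM. H2afx, whose product is phosphorylated around DNA breaks such as those of V(D)J recombination, was at 134, 161, 119 and 222 FPKM. In all 3 genes the transplanted wild type was lowest and the library labelled knockout highest. H2afy, which encodes macroH2A, lay between 214 and 249 FPKM with the same libraries at the ends. H2afj, another H2A variant, went the other way, from 21.7 FPKM in the transgenic to 31.1 in the transplanted wild type. Cenpa, the centromeric H3 variant outside the symbol pattern, was at 82.3, 89.0, 69.4 and 94.6 FPKM.

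**Figure D2:**
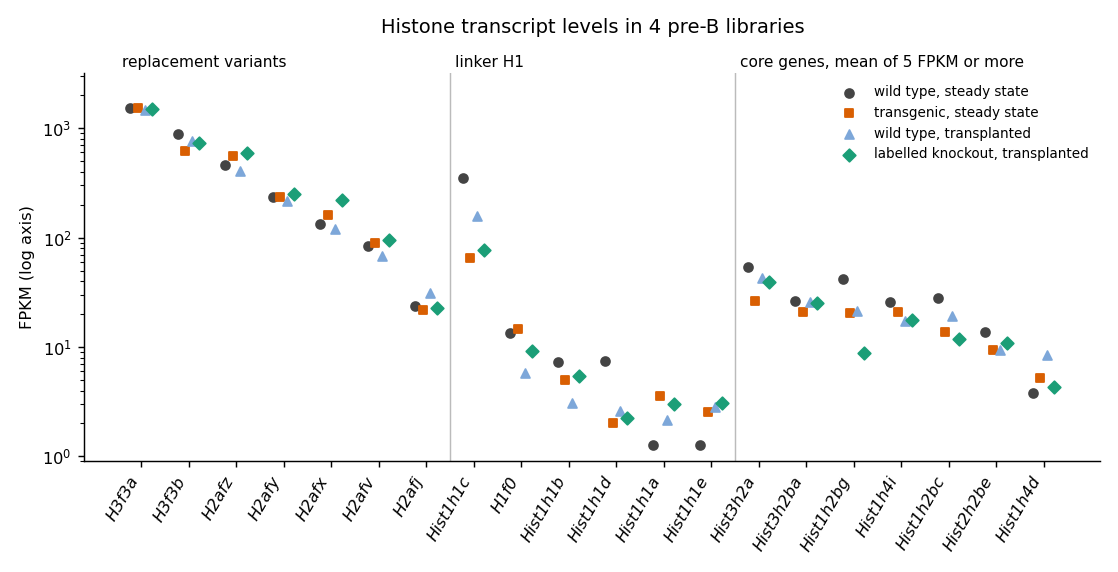
FPKM on a log axis of the 7 replacement variants, the 6 linker genes and the 7 core genes with a mean of 5 FPKM or more, with 1 point per library. H3f3a lies between 1457 and 1526 FPKM in the 4 libraries, while Hist1h1c spans 65.0 to 350.4.

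Among the core genes, a few members carried most of the signal. Hist3h2a held 79.7%, 61.6%, 87.3% and 73.1% of the core H2A FPKM in the steady-state wild type, the transgenic, the transplanted wild type and the labelled knockout library, at 53.7, 26.5, 42.6 and 38.9 FPKM. Its annotated transcript (chr11:58954685-58956830) runs 1643 nt past the stem loop to a poly(A) signal. The H2B genes with the highest means were Hist3h2ba, at 26.5, 20.7, 25.7 and 25.1 FPKM, and Hist1h2bg, at 41.6, 20.3, 21.2 and 8.77 FPKM. Hist1h2bg was highest in the steady-state wild type and lowest in the library labelled knockout, while Hist3h2ba kept within 20.7 to 26.5 FPKM. Hist1h2bc was at 27.8, 13.8, 19.1 and 11.7 FPKM, again with each wild-type library above its partner. Hist2h2be was at 13.8, 9.36, 9.47 and 10.8 FPKM.

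H4 signal was led by Hist1h4i, at 25.7, 20.9, 17.2 and 17.5 FPKM, which made up 34.7% to 46.5% of core H4 FPKM. Hist1h4d lay between 3.84 and 8.46 FPKM. Hist2h4 rested on 1, 10, 6 and 4 reads, and Hist1h4h on 13, 6, 1 and 10 reads. Hist2h4 was thus lowest in the steady-state wild type and Hist1h4h in the transplanted wild type. Hist1h4b was at 1.08 to 7.73 FPKM, Hist1h4f at 1.28 to 5.39 and Hist1h4m at 2.92 to 4.19. Core H3 had the lowest summed FPKM of the classes in each library. Hist2h3c1 led it at 7.25, 3.66, 4.23 and 3.56 FPKM. Hist1h3c had 1, 7, 2 and 8 reads and Hist1h3a 2, 6, 4 and 9, both higher in the transgenic and in the labelled knockout library than in the wild types. Hist1h3d lay between 1.70 and 3.39 FPKM and Hist1h3g between 0.454 and 2.43. The remaining H2A and H2B genes among those ranked highest, Hist2h2ac, Hist1h2ak, Hist1h2ac, Hist1h2ae, Hist1h2bb, Hist1h2bm and Hist1h2bj, stayed at or below 7.31 FPKM.

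The first comparison asked how transgenic pre-B cells differ from wild type at steady state. Hist1h1c was 5.40-fold lower in the transgenic library (4.64 to 6.30) and Hist1h1d 3.65-fold lower (1.49 to 9.70). Some of the most abundant core genes were also lower: Hist1h2bg 2.05-fold (1.26 to 3.47), Hist3h2a 2.02-fold (1.34 to 3.15) and Hist1h2bc 2.02-fold (1.11 to 3.89). H3f3b was 1.44-fold lower (1.32 to 1.56), while H3f3a had a ratio of 1.01 (0.944 to 1.08). H2afz was higher at a ratio of 1.20 (1.06 to 1.36), and so was H2afx at 1.20 (1.001 to 1.45). Hist2h4 was at 10.1 times its wild-type level (1.43 to 438), from 1 and 10 reads. The intervals of Hist1h1a (0.961 to 10.0), Hist1h1e (0.540 to 9.15), Hist1h1b (0.347 to 1.32), H1f0 (0.679 to 1.75), H2afv (0.818 to 1.41), H2afy (0.905 to 1.14) and H2afj (0.548 to 1.62) all held 1.

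Differences across members were taken on the log2(FPKM + 1) scale, which understates low genes. Of 50 members that reached 1 FPKM in at least 1 library of the pair, 28 were higher and 22 lower, with a median difference of 0.01. Over all 10843 genes measured, 46.7% were higher and the median was -0.02. On that scale, 4 members were at least 2-fold higher, where the share of all genes was 1.22%, and 5 were at least 2-fold lower, where it was 0.682%. The 4 were Hist1h1a, Hist1h2an, Hist1h3c and Hist2h4, with at most 14 reads each, and the 5 were Hist1h1c, Hist1h1d, Hist1h2ac, Hist1h2bg and Hist1h4k. Some of these names were chosen after their values were seen. Among the 15 members with 20 or more reads in either library, 6 were higher and 9 lower. Summed linker FPKM was 92.6 against 381, a ratio of 0.243 (0.213 to 0.276), and 0.903 (0.667 to 1.22) without Hist1h1c. Summed core levels were 43.1 against 67.4 FPKM for H2A, 88.3 against 135 for H2B, 14.3 against 14.5 for H3 and 59.0 against 55.3 for H4. The H2A sum followed Hist3h2a, at 26.5 against 53.7 FPKM, while 5 of 7 measured H2A members were higher. Of 13 measured H2B members, 8 were lower. The sum of the 5 H2A variants was 1061 against 932 FPKM.

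Scaling every library to the same sum of FPKM would move the median of all genes by more than 0.1, to -0.13, and the share higher from 46.7% to 28.4%. Under that scaling 22 members were higher and 28 lower, with a median of -0.07. H3f3a, H2afv, H2afy, Hist1h2bj, Hist1h4f and Hist1h4j turned from slightly higher to lower in the transgenic library, and the H4 sum from above to below wild type. The ratios of H2afz, 1.11 (0.978 to 1.25), and H2afx, 1.10 (0.920 to 1.33), then had intervals that held 1, and that of H3f3a, 0.928 (0.869 to 0.991), one that did not. Markers of other cells and of the pre-B stage also differed between these libraries. The 15 neutrophil markers were all higher in the transgenic library, and all 6 measured erythroid markers and all 7 plasma cell markers were lower. Of 10 mature B cell markers 8 were higher, and of 6 measured monocyte and macrophage markers 4. Of 18 pre-B markers 6 were higher and 12 lower, with a median of -0.08. Among the 6, Vpreb1, Vpreb2, Igll1 and Dntt were at least 2-fold higher. The part of these markers in the histone differences was not tested.

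**Figure D3:**
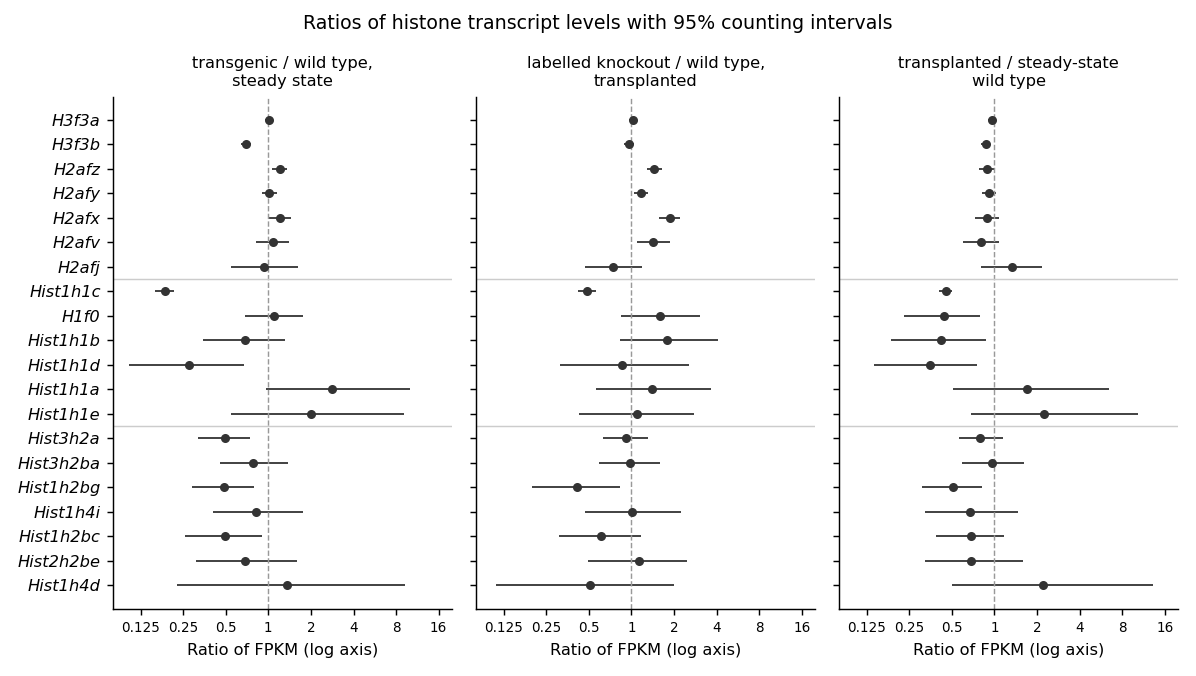
Ratio of FPKM (log axis) of the variants, linker genes and most abundant core genes in 3 comparisons, with 95% counting intervals as bars and a dashed line at 1. Hist1h1c lies below 1 in all 3 panels, at 0.185, 0.485 and 0.451, while H2afx and H2afz lie above 1 in the first and second panels, with intervals that hold 1 in the first when libraries are scaled to the same sum of FPKM.

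The second comparison set the library labelled knockout against wild type, both 1 month after transplantation. The H2A variants were higher there: H2afx at a ratio of 1.87 (1.58 to 2.22), H2afz at 1.45 (1.28 to 1.63), H2afv at 1.43 (1.10 to 1.88) and H2afy at 1.17 (1.04 to 1.30). H2afj, at 0.739 (0.466 to 1.19), was not distinguishable by counting error. The H3 variant genes had ratios of 1.03 (0.964 to 1.09) for H3f3a, which became 1.10 (1.04 to 1.18) when scaled to the same sum of FPKM, and 0.964 (0.890 to 1.04) for H3f3b. Hist1h1c was again lower, 2.06-fold (1.78 to 2.39), and so was Hist1h2bg, 2.42-fold (1.21 to 5.07). The intervals of the other linker genes held 1: H1f0 (0.841 to 3.04), Hist1h1a (0.560 to 3.64), Hist1h1b (0.830 to 4.08), Hist1h1d (0.314 to 2.54) and Hist1h1e (0.424 to 2.77). Hist3h2a, at 0.914 (0.627 to 1.31), Hist3h2ba, at 0.980 (0.593 to 1.60), and Hist1h4i, at 1.01 (0.467 to 2.26), stayed near 1. Hist1h2bm had 11 reads against 2, a ratio of 4.91 (1.07 to 45.6). Hist1h4h had 10 reads against 1, a ratio of 8.93 (1.27 to 387).

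Of 51 members measured, 28 were higher and 23 lower, with a median of 0.09, while 44.0% of all 10790 genes were higher and the median was -0.03. At least 2-fold higher were 9 members, where the share of all genes was 0.667%, and at least 2-fold lower were 5, where it was 1.18%. The 9 all had 11 or fewer reads in either library, and 2 of them, Hist1h2bm and Hist1h4h, had an interval above 1. The 5 were Hist1h1c, Hist1h2bg, Hist1h2bn, Hist1h4c and Hist1h4k, the last 3 at 4 or fewer reads. Among the 14 members with 20 or more reads in either library, 7 were higher and 7 lower. Summed linker FPKM was 99.6 against 175, a ratio of 0.571 (0.500 to 0.652). Without Hist1h1c the ratio was 1.40 (0.980 to 1.98), an interval that held 1. The sum of the 5 H2A variants was 1179 against 838 FPKM, a ratio of 1.41. Core H2A was 53.2 against 48.8 FPKM, H2B 86.5 against 93.9, H3 18.7 against 14.0 and H4 42.0 against 49.7. Scaled to the same sum of FPKM, H3f3b and Hist3h2ba turned from slightly lower to higher, as did Hist1h2bb, which also turned when scaled by the median of gene ratios. In this comparison 14 of 15 neutrophil markers and 9 of 10 mature B cell markers were lower in the library labelled knockout. So were all 9 measured monocyte and macrophage markers. Of 18 pre-B markers 10 were higher and 8 lower. The part of these markers was not tested.

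The third comparison set the transplanted wild type against the steady-state wild type. It shares a library with each of the others, so its values are not independent of them, and the sample titles carry the code 0826 for both transplanted libraries and 0901 for both steady-state ones, so transplantation and whatever that code marks cannot be told apart. Lower values prevailed: of 49 members, 35 were lower and 14 higher, with a median of -0.30, against a median of -0.02 and 45.9% higher over 10835 genes. At least 2-fold lower were 12 members, where the share of all genes was 0.628%, and at least 2-fold higher were 2 (Hist1h3e and Hist2h4), where it was 1.67%. The 12 were 4 linker genes named below and the core genes Hist1h2ab, Hist1h2ac, Hist1h2ak, Hist1h2bp, Hist1h3g, Hist1h4h, Hist1h4j and Hist2h2bb. These core genes had 13 or fewer reads in either library. Among them, the intervals of Hist1h2bp and Hist1h4h alone lay below 1. Among the 15 members with 20 or more reads in either library, 14 were lower. Of 6 linker genes, 4 had intervals below 1: Hist1h1c was 2.22-fold lower (1.998 to 2.47), H1f0 2.29-fold (1.26 to 4.36), Hist1h1b 2.40-fold (1.14 to 5.41) and Hist1h1d 2.85-fold (1.33 to 7.16). Hist1h1a, at 1.70 (0.512 to 6.46), and Hist1h1e, at 2.23 (0.681 to 10.3), had intervals that held 1.

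Hist1h2bg was 1.96-fold lower (1.22 to 3.23) and Hist1h4h 13.8-fold lower (2.07 to 585), the latter from 13 reads and 1. Of the variants, H3f3b was 1.16-fold lower (1.07 to 1.25). The ratios of H3f3a, 0.963 (0.902 to 1.03), H2afz, 0.887 (0.777 to 1.01), H2afx, 0.887 (0.731 to 1.08), H2afy, 0.918 (0.816 to 1.03), and H2afv, 0.809 (0.603 to 1.07), were below 1 with intervals that held it. H2afj was above 1, at 1.32 (0.807 to 2.15). Scaled to the same sum of FPKM, which took the share of all genes higher to 31.1%, the ratios of H3f3a (0.839 to 0.957), H2afz (0.722 to 0.941), H2afy (0.759 to 0.961) and H2afv (0.560 to 0.998) had intervals below 1. All 15 neutrophil, all 10 mature B cell and all 9 measured monocyte and macrophage markers were higher in the transplanted wild type. All 6 measured erythroid and all 7 plasma cell markers were lower there, 3 of the plasma cell markers at least 2-fold. Of 18 pre-B markers 8 were higher and 10 lower there, with a median of -0.10. Among the 8, Vpreb1, Vpreb2, Igll1 and Dntt were again at least 2-fold higher than in the steady-state wild type. The part of these markers was not tested.

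The replication-dependent members were also divided by their annotated 3′ end. Of those measured whose transcript ends at the stem loop, 11 of 12 were higher in the transgenic library than in wild type, with a median difference of 0.57, although 2 of the 11, Hist1h2bj and Hist1h4f, had equal reads in both. None of the 12 had an interval above 1. Of those that run past the stem loop, 8 of 19 were higher, with a median of -0.34. Over all genes 46.7% were higher. Scaled to the same sum of FPKM, the counts were 9 of 12 and 7 of 19, where 28.4% of all genes were higher. The library labelled knockout showed the same order: 9 of 12 genes that end at the stem loop were higher (median 0.80), and 4 of 18 that run past it (median -0.19). There 2 of the genes that end at the stem loop had an interval above 1, and 44.0% of all genes were higher. Between the wild types, 5 of 11 and 6 of 20 were higher, with medians of -0.05 and -0.45, against 45.9% of all genes. In summed reads, the genes that end at the stem loop had 74 against 49 reads in the first comparison and 94 against 46 in the second. Adjusted for depth, these were ratios of 1.52 (1.05 to 2.23) and 1.82 (1.27 to 2.66). Genes that run past it, without Hist1h1c, had 168 against 262 and 188 against 203, or adjusted for depth 0.646 (0.529 to 0.788) and 0.827 (0.674 to 1.01). Nearly all genes of the first kind have close copies: of the 12 measured, 1 (Hist1h1a) had no copy at 95% identity or more. Without such copies the comparison rests on that gene and on 9 genes that run past the stem loop, of which 3 and 1 were higher. Because the split was chosen after the values were seen, these counts are a description.

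**Figure D4:**
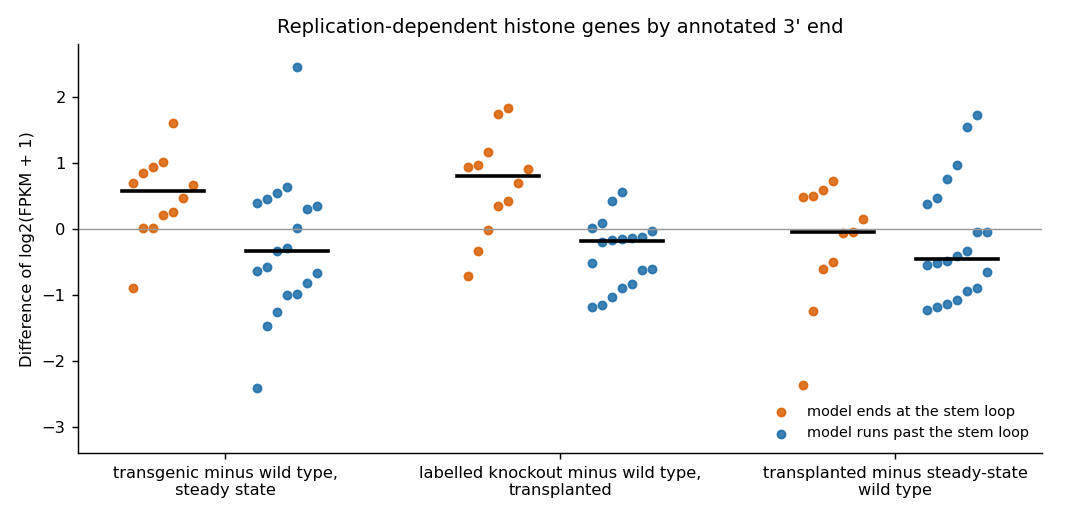
Difference of log2(FPKM + 1) for replication-dependent members, by whether the annotated transcript ends within 100 nt of the stem loop or runs past it, in 3 comparisons (points are genes, black lines medians). The medians are 0.57 and -0.34 in the first comparison, 0.80 and -0.19 in the second, and -0.05 and -0.45 in the third.

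Genes that make and place histones were read from lists of known pathway members. Some genes are on several lists, among them Slbp, Ccne2, Ccna2, Mcm2 and Pcna, so the lists are not independent. Over all genes, 46.7% were higher in the transgenic library, 44.0% in the library labelled knockout and 45.9% between the wild types. Scaled to the same sum of FPKM, these shares were 28.4%, 60.9% and 31.1%. Of 36 S phase genes, 35 were higher in the transgenic library (median 0.34) and all 36 in the library labelled knockout (median 0.57). Between the wild types 21 of 36 were higher, with a median of 0.03, which turned to 11 of 36 when scaled to the same sum of FPKM. Cdc6, a loader of the replicative helicase, was at 6.56, 11.1, 7.33 and 13.1 FPKM in the steady-state wild type, the transgenic, the transplanted wild type and the labelled knockout library. Rrm2, the small subunit of ribonucleotide reductase, was at 107, 141, 87.7 and 176 FPKM. All 21 mitosis genes were higher in both genotype comparisons, with medians of 0.36 and 1.00, and all 21 were lower in the transplanted than in the steady-state wild type, with a median of -0.30. Cdk1, the mitotic kinase, was at 22.8, 28.5, 16.5 and 37.3 FPKM. The part of these genes' differences in the histone results was not tested.

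Of 14 genes of replication-coupled deposition, 12 were higher in each genotype comparison, with medians of 0.16 and 0.35, and 7 of 14 between the wild types. Scaled to the same sum of FPKM, 9 were higher in the transgenic (median 0.04), 12 in the library labelled knockout (median 0.45) and 3 between the wild types. Asf1b, which hands new H3 and H4 to assembly factors, was at 45.4, 62.1, 31.4 and 64.5 FPKM. Chaf1a, the large subunit of the assembly factor CAF-1, was at 13.9, 19.03, 13.6 and 24.8 FPKM, and its partner Chaf1b at 9.44, 9.92, 9.98 and 14.8. Nasp, a carrier of soluble H3 and H4, was at 47.2, 51.7, 40.5 and 62.3 FPKM.

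Slbp, which binds the stem loop and is itself made in S phase, was at 93.3, 109, 84.2 and 122 FPKM. It had the largest difference of its list in the library labelled knockout, 0.53. Across that list of 3′ end processing and turnover, 14 of 22 genes were higher in the transgenic library, with a median of 0.04. In the library labelled knockout 15 of 23 were higher, with a median of 0.06. Scaled to the same sum of FPKM, the counts were 7 of 22 and 20 of 23, where 28.4% and 60.9% of all genes were higher. Npat, the cyclin E and CDK2 target that drives histone transcription, was at 7.99, 8.92, 7.42 and 8.22 FPKM. Its list of transcription and histone locus body genes had 11 of 17 higher in the transgenic (7 of 17 when scaled to the same sum) and 13 of 17 in the library labelled knockout (15 of 17), with medians of 0.03 and 0.29. Between the wild types 1 of 17 was higher. The largest differences in the library labelled knockout were those of Ccne2 (1.07), Ccna2 (0.92), E2f1 (0.83) and Ccne1 (0.75), the cyclins of S phase entry and their activator. Of these, Ccne2 was already counted among the S phase genes and Ccna2 among the mitosis genes.

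Among the chaperones that place variants outside replication, Hira was at 31.0, 30.4, 27.3 and 27.8 FPKM, Daxx at 38.6, 38.9, 42.2 and 42.6 and Atrx at 64.0, 63.9, 61.0 and 59.6, all of them placing the H3 variant of H3f3a and H3f3b. Of 17 genes of that list 9 were higher in the transgenic library and 11 in the library labelled knockout, with medians of 0.00 and 0.03, and 2 of 17 between the wild types. Scaled to the same sum of FPKM, 4 were higher in the transgenic (median -0.12) and 16 in the library labelled knockout (median 0.13). Hjurp, which loads the centromeric H3 variant, was at 9.85, 10.9, 6.24 and 12.4 FPKM. Among general chaperones, 8 of 11 were higher in the transgenic (4 when scaled to the same sum) and 10 of 11 in the library labelled knockout (11 when so scaled). Ptma, an acidic carrier of H1 and other histones, was at 2532, 2545, 2250 and 3185 FPKM, and Anp32b at 144, 174, 165 and 225.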

How the data were processed

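RNA was extracted by miRNeasy and made into libraries by the TruSeq stranded mRNA kit, which selects poly(A) RNA, per the labels' protocols. Per the submitters' processing notes, the build was mm10 and the tools were Cufflinks 2.2.1, SAMtools 0.1.19, Bowtie2 2.2.3 and TopHat2 2.0.13. What each did, with which annotation and strand setting, is not given in the sources used here. Values the authors deposited are read as FPKM, since they are not whole and Cufflinks is named, although no header names the unit. How reads shared by near-identical genes were divided is likewise not given.

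Differences were taken as log2(FPKM + 1) among genes that reached 1 FPKM in either library, with a fold of 2 on that scale. Reads were estimated from the steps of low values: 314 low genes gave relative depth, and 247 of 950 genes (26%) lay within 1% of a common depth with a transcript length less 210 nt. A member's reads were called whole within 0.07 of a read and matched to a model within 6 nt. For 4 members a step that matched no model was kept. Otherwise reads were taken from the shortest model. All 55 members were matched in GENCODE M21 (GRCm38) and RefSeq, by symbol or synonym. Python 3.11.15, pandas 2.3.3, NumPy 2.4.6, SciPy 1.17.1, Biopython 1.88 and matplotlib 3.10.9 were used. The recovery of reads and the intervals were tested on simulated data. Those data held genes with a single transcript and independent reads, none shared between copies. The test therefore does not cover near-identical genes or duplicate reads.

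Named genes were every linker and variant member, the 5 core genes per class with the highest mean, per comparison the 3 with the largest difference at 5 FPKM or more, and of each pathway list up to 4 with the largest difference, with Slbp, Npat, Chaf1a, Chaf1b, Asf1b, Nasp, Hira, Daxx, Atrx, Cenpa, H1fx and Stap2. The members and lists were chosen with earlier results of these data known. Alternatives changed the pseudocount, the filter, the scaling, the limit of the 3′ end and the members allowed. Nothing says whether cells of 1 mouse or several were used for a library.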

Additional observations from a re-analysis of the deposited data

How the results depend on the processing

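Each library is 1 of its kind, so no replicate could be left out. No paired analysis was possible because each group holds 1 library and the groups share no numbered replicates. A class ratio or a median was taken as kept within its counting interval, and a count within 1.5 times. A named member was taken as kept if it moved by no more than the longer arm of its interval. A value was taken as turned only where the interval of the deposited values left out 1. So read, of 177 alternative values of the main results 140 kept, 36 moved and 1 turned. Of 555 for the named members 552 kept and 3 moved, all H3f3a at the same sum of FPKM. Intervals of members with few reads are wide, so their values were nearly bound to be kept. The 552 therefore do not show that those members are stable. Members whose interval held 1 and whose sign changed under a scaling are named with the comparisons. The summed linker ratio without Hist1h1c, chosen after seeing the data, was 0.903 in place of 0.243 in the transgenic, 1.40 in place of 0.571 in the library labelled knockout, where it crossed 1 with an interval (0.980 to 1.98) that held it, and 0.537 in place of 0.458 between the wild types. Scaled to the same sum of FPKM, the summed variant ratios were 0.886 (from 0.963), 1.20 (from 1.12) and 0.855 (from 0.919).

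Counts at 2-fold depended on low genes. In the transgenic, the 4 higher became 1 with a pseudocount of 5, 1 at 5 FPKM or more, 1 at 1 FPKM in all 4 libraries and 2 without close copies. The 5 lower became 12 with a pseudocount of 0.1, 1 with 5, 8 at the same sum and 2 without close copies. In the library labelled knockout, the 9 higher became 0 with a pseudocount of 5, 2 at 5 FPKM or more, 1 at 1 FPKM in all libraries and 2 without close copies, and the 5 lower became 0, 2, 3 and 1. Between the wild types, the 2 higher became 4 with a pseudocount of 0.1, 0 with 5, 1 at 5 FPKM or more, 0 at 1 FPKM in all libraries and 1 without close copies, and the 12 lower became 2 with a pseudocount of 5, 7, 6 and 6.

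Without close copies (added after seeing the data), the genes that end at the stem loop and were higher numbered 1, 1 and 1 of 1 in place of 11, 9 and 5, and those that run past it 3, 1 and 3 of 9 in place of 8, 4 and 6. Fewer members remain by construction there. Limits of 50 and 200 nt gave 9 of 10 and 12 of 15 in the transgenic and 7 of 10 and 10 of 15 in the library labelled knockout. The cause of the other moves was not tested. Depth limits the 40 members under 20 reads: most of their differences lie within counting error.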
